A study of Mus musculus with 36 samples.

Results

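Adipose tissue mesenchymal stem cells (A-MSCs) were set against cultured MSCs of the 3 other mouse tissues, femoral bone marrow (fBM-MSCs), vertebral bone marrow (vBM-MSCs) and lung (P-MSCs). The A-MSCs comprised 3 of the 11 RNA-seq libraries analysed, chosen by their tissue label alone, beside 3 of fBM-MSCs, 2 of vBM-MSCs and 3 of P-MSCs. All cells came from 8-week-old C57BL6/J mice, and no transgene is given for any group. Femurs and vertebrae were crushed with a mortar and pestle, while fat and lung were minced and digested with collagenase. Red cells were lysed, the cells were grown on collagen I-coated dishes in MesenCult medium, which held MesenPure and a Rock inhibitor (an inhibitor of a kinase that drives actomyosin contraction) for all 4 tissues, and they were used within 3 passages, so every library is of adherent culture and not of fresh tissue. The 4 tissues came from the same 3 mice, but which libraries share a mouse, the fat depot and the sex of the mice are not given in the sources used here. The third vBM-MSC replicate was not analysed here.

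MSCs are stromal cells that adhere to plastic and can form bone, cartilage and fat. In adipose tissue they lie among the adipocytes and along vessels, and visceral fat is covered by mesothelium, an epithelial sheet of mesodermal origin that carries keratins, mesothelin and the transcription factor Wt1. Stromal cells in culture also take up a contractile programme of smooth muscle actin and its partners to varying degrees.

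Each library held 19569650 to 40517739 expected counts, the estimate of reads per gene before any scaling, with a median of 34414200. A gene's level is given below as TPM (transcript abundance as RSEM scales it), which is scaled for transcript length and library size. Of 12 MSC surface marker genes tested, 2 were higher (16.7%, beside 16.0% of all tested genes) and 5 were lower in A-MSCs (41.7%, beside 13.9%). The lower ones were Itgb1, Ly6a, Vcam1, Alcam and Cd200. Itgb1 was at 466 to 522 TPM in A-MSCs against 672 to 1051 TPM, without overlap. Ly6a (114 to 145 TPM against 42.3 to 805 TPM) and Vcam1 (36.3 to 53.1 TPM against 29.3 to 117 TPM) overlapped the others. Cd44, the hyaluronan receptor, was at 367 to 405 TPM in A-MSCs and 229 to 720 TPM in the others, with no difference passing the test (adjusted p = 0.58). Markers of other cells were uneven. The 14 blood and vessel markers in the files summed to 4.39 to 56.6 TPM in A-MSCs and 4.61 to 80.2 TPM in the others, and of 5 tested 2 were higher and 1 was lower, or 1 higher of 4 without the member that met the filter on low counts only through the A-MSC libraries. Among the 14, Ptprc, the pan-leukocyte marker, was at up to 0.08 TPM in A-MSCs and Hbb-bs was listed at 0 in every library. The 20 macrophage markers summed to 19.7 to 29.9 TPM in A-MSCs and 25.2 to 73.3 TPM in the others, with 1 higher of 6 tested (Csf1r, at 5.46 to 6.56 TPM in A-MSCs). The 25 epithelial markers other than simple keratins summed to 16.1 to 26.4 TPM in A-MSCs and 1.68 to 6.70 TPM in the others, with 3 higher of 6 tested. Krt14, at 2.96 to 5.40 TPM, met the filter only through the A-MSC libraries, and without it 2 of 5 were higher. These were Esrp2, at 5.75 to 6.97 TPM, and Cldn3, at 0.95 to 1.59 TPM. For Cldn3, P-MSCs were above A-MSCs, at 1.93 to 2.53 TPM. Sftpc and Krt5 were listed at 0 in every library. The part of these cells in the results below was not tested. The A-MSC libraries differed among themselves in vessel and fat genes. Emcn, an endothelial sialomucin, was at 49.5 TPM in replicate 1 and at 5.51 and 2.32 TPM in replicates 2 and 3. Adipoq, the hormone adiponectin of mature adipocytes, was at 14.6 TPM in replicate 3 and at 2.69 and 0 TPM in replicates 1 and 2. In bulk RNA, fewer cells of a type and less RNA per cell cannot be told apart.

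Against the mean of the other tissue means, 1997 of 12509 tested genes were higher in A-MSCs, or 16.0%, and 1740 were lower, or 13.9% (edgeR's quasi-likelihood test, Benjamini-Hochberg adjusted p under 0.05). Against P-MSCs alone 16.0% of genes were higher and 14.9% were lower, against fBM-MSCs 20.3% and 20.6%, and against vBM-MSCs 12.4% and 13.2%. These comparisons share the A-MSC libraries. Genes higher than each of the 3 tissues numbered 306, or 2.45%, and genes lower than each numbered 332, or 2.65%. A second rule asked only for no overlap in TPM, whether or not the test was passed. Genes higher in every A-MSC library than in every other library numbered 541, or 4.32% of those tested, and genes lower in every A-MSC library numbered 972, or 7.77%. Of the 541, 519 also passed the test of the mean contrast, and of the 972, 824 did. The rule and the test used the same libraries, so these counts describe the sets and are not separate evidence. Of the 541, 66 met the filter on low counts only through the A-MSC libraries, so that they had to differ. Of the other 475, 459 passed. Among all 12337 genes that met the filter without the A-MSC libraries, 1906 were higher by the test. The balance between the directions depended on the scale. On log2(TPM + 1), where the median of all tested genes was shifted by −0.123, limma called 1354 genes higher and 2558 lower, so that 34.6% of calls were higher against 53.4% for the counts. The change of a gene in TPM below is read relative to that shift. With TMM-scaled CPM in place of TPM, 842 genes were higher in every A-MSC library and 663 were lower. Of these, 532 were shared with the 541, which is 98.3% of the TPM set and 63.2% of the CPM set, and 651 were shared with the 972, or 67.0% and 98.2%.

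The 541 genes higher in every A-MSC library spanned the whole range of levels, with a mean of at least 100 TPM for 136 of them and of at least 1000 TPM for 17. The other tissue nearest in level was P-MSC for 268 of them (49.5%), vBM-MSC for 199 (36.8%) and fBM-MSC for 74 (13.7%). Among the 972 lower genes the nearest was P-MSC for 495 (50.9%), vBM-MSC for 283 (29.1%) and fBM-MSC for the other 194. The rule itself chose these genes, so their median log2 fold changes of 1.30 and −0.81, beside −0.004 for all tested genes, only describe them. Many were separated by little. The lowest A-MSC library stood at least 2-fold above the highest other for 87 of the higher genes, with a median gap of 1.21-fold. The same held for 89 of the lower genes in their direction, with a median gap of 1.13-fold. At the edge of the rule on the higher side, Cops6 was just outside, with its lowest A-MSC library at 421.24 TPM and the highest other at 421.61 TPM. On the lower side, Nme4 was just inside, with its highest A-MSC library at 30.91 TPM and the lowest other at 30.92 TPM, and Ubxn1 was just outside, at 122.26 and 122.24 TPM. The libraries carry no strand information, so reads from sequence that genes on opposite strands share cannot be told apart. The spans of 229 of the higher and 449 of the lower genes, introns included, overlapped another gene, and shared exons were not counted.

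**Figure D1:**
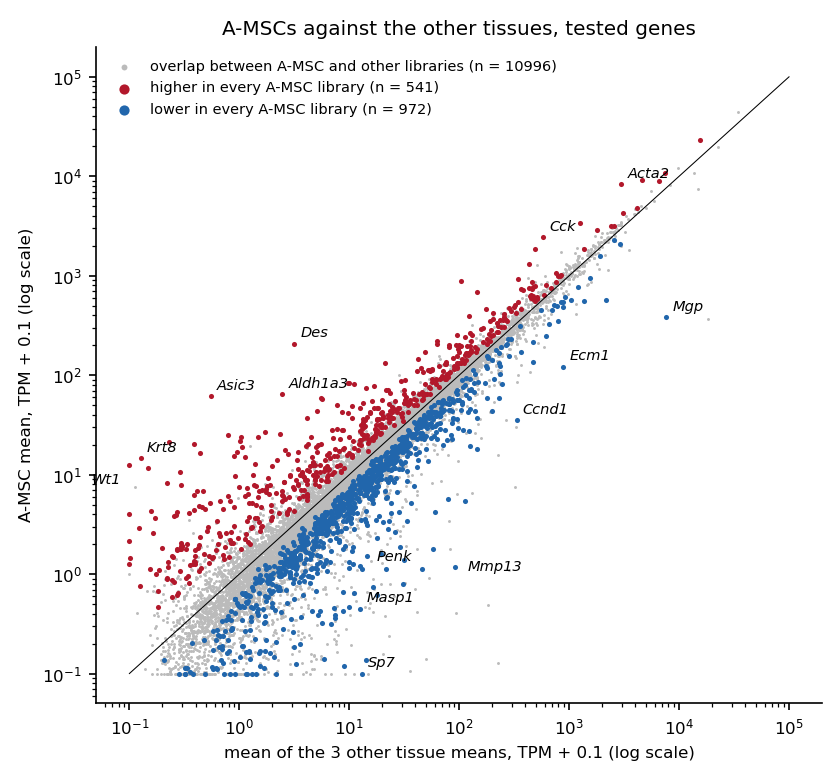
Mean TPM of each tested gene in A-MSCs (vertical axis) against the mean of the 3 other tissue means (horizontal axis), both with 0.1 added and on log scales. Red points are the 541 genes higher in every A-MSC library, blue points the 972 lower, grey points the rest; Wt1 and Krt8 lie at the left edge, far above the diagonal line of equal level.

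Mesothelial genes included the widest separations by fold. Of 26 in the list, 19 were tested, and 8 of these met the filter on low counts only through the A-MSC libraries, so that they had to differ. Of the other 11, 4 were higher in A-MSCs and 1 was lower, beside 16.0% higher and 13.9% lower of all tested genes. Counting all 19, 12 were higher and 1 was lower (63.2% and 5.26%), with a median log2 fold change of 3.28, which describes the list and supports nothing. Wt1, a zinc finger transcription factor of mesothelium and its derivatives, was at 10.6, 14.9 and 11.7 TPM in the A-MSCs and had no count in any of the 8 other libraries. Its A-MSC level was at least 159.9-fold higher than a floor of 3 counts in an other library (a description, since it met that filter only through the A-MSC libraries, as did Gpm6a, Lrrn4 and Krt8). Gpm6a, a membrane glycoprotein best known from neurons, was at 6.25, 1.53 and 3.90 TPM in A-MSCs and also had no count elsewhere, which put it at least 47.6-fold higher than that floor. Lrrn4, a leucine-rich repeat membrane protein, was at 2.37, 1.02 and 2.82 TPM against none, at least 30.2-fold higher. No library of the other tissues overlapped the A-MSCs for these genes. The spans of Gpm6a and Lrrn4, introns included, overlap antisense genes (LOC115486929 and Crls1). Both genes were low enough for the A-MSC libraries to differ several-fold among themselves.

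Krt8 and Krt18, the paired keratins of simple epithelia, moved together across the A-MSC libraries. Krt8 was at 11.1, 21.0 and 11.2 TPM in A-MSCs, at 0.24 TPM in 1 P-MSC library and at 0 in the remaining 7. Krt18 was at 11.2, 27.1 and 11.1 TPM in A-MSCs, at 0.72 to 1.01 TPM in P-MSCs, at 0 in fBM-MSCs, and at 0 and 0.36 TPM in vBM-MSCs. Both were highest in A-MSC replicate 2, and neither overlapped another tissue. Krt7, a keratin of simple and glandular epithelia, followed at 8.74, 11.7 and 11.4 TPM against at most 0.66 TPM elsewhere. Krt19 departed from this pattern, since its 18.9, 18.5 and 17.1 TPM in A-MSCs lay below the 53.2, 59.8 and 51.7 TPM of P-MSCs (adjusted p = 0.41 for the mean contrast).

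Upk3b, a uroplakin of urothelium and mesothelium, was at 14.0, 7.76 and 12.6 TPM in A-MSCs and at no more than 0.18 TPM in any other library. Msln, the surface protein mesothelin, was at 12.2, 5.37 and 11.1 TPM in A-MSCs, at 1.61 to 2.94 TPM in P-MSCs and at no more than 0.24 TPM in bone marrow MSCs. P-MSCs therefore came nearest to A-MSCs for Msln, with a log2 fold change of 2.26 between them (adjusted p = 0.035). The uroplakin Upk1b was at 95.5, 74.8 and 49.9 TPM in A-MSCs, 21.3 to 35.9 TPM in P-MSCs and no more than 14.97 TPM in bone marrow MSCs. The list was not uniform. Anxa8, an annexin, was the member that was lower, at 4.17, 5.28 and 6.53 TPM against 9.72 to 303 TPM, and Bnc1, a zinc finger factor, was at 0.28 to 0.53 TPM in A-MSCs and 0 elsewhere, too low to be tested. Summed over the list, the level was 1394 to 1453 TPM in A-MSCs, 1011 to 1081 TPM in P-MSCs, 473 to 1148 TPM in fBM-MSCs and 1813 to 2903 TPM in vBM-MSCs. Cav1, caveolin 1, which many cell types carry, took 571 to 590 TPM of the A-MSC sum and 1347 and 639 TPM of the vBM-MSC sum, and did not pass the test (adjusted p = 0.42).

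Aldh1a3 makes retinoic acid from retinaldehyde. It was at 73.5, 49.6 and 70.6 TPM in A-MSCs, 0.37 to 0.72 TPM in P-MSCs, 0.40 to 0.98 TPM in fBM-MSCs, and 5.87 and 5.71 TPM in vBM-MSCs. The lowest A-MSC library was 8.45-fold above the highest other, and the log2 fold change was 5.76 ± 0.22 (SE, adjusted p = 7.2e-08). Of 23 retinoid genes tested, 8 were higher in A-MSCs and 4 were lower (34.8% and 17.4%, beside 16.0% and 13.9% of all tested genes), with a median of 0.38. Without 1 member that met the filter on low counts only through the A-MSC libraries, 7 of 22 were higher. Aldh1a2, its paralogue, was at 21.4 to 23.7 TPM in A-MSCs and 17.3 to 21.2 TPM in P-MSCs, a difference that did not pass the test (adjusted p = 0.13), and at 0.73 to 4.84 TPM in bone marrow MSCs. Adh7, an alcohol dehydrogenase that oxidises retinol, went the other way, at 1.30, 0.14 and 0.51 TPM in A-MSCs against 8.75 to 31.0 TPM. The retinaldehyde dehydrogenases and Adh7 thus differed in direction.

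**Figure D2:**
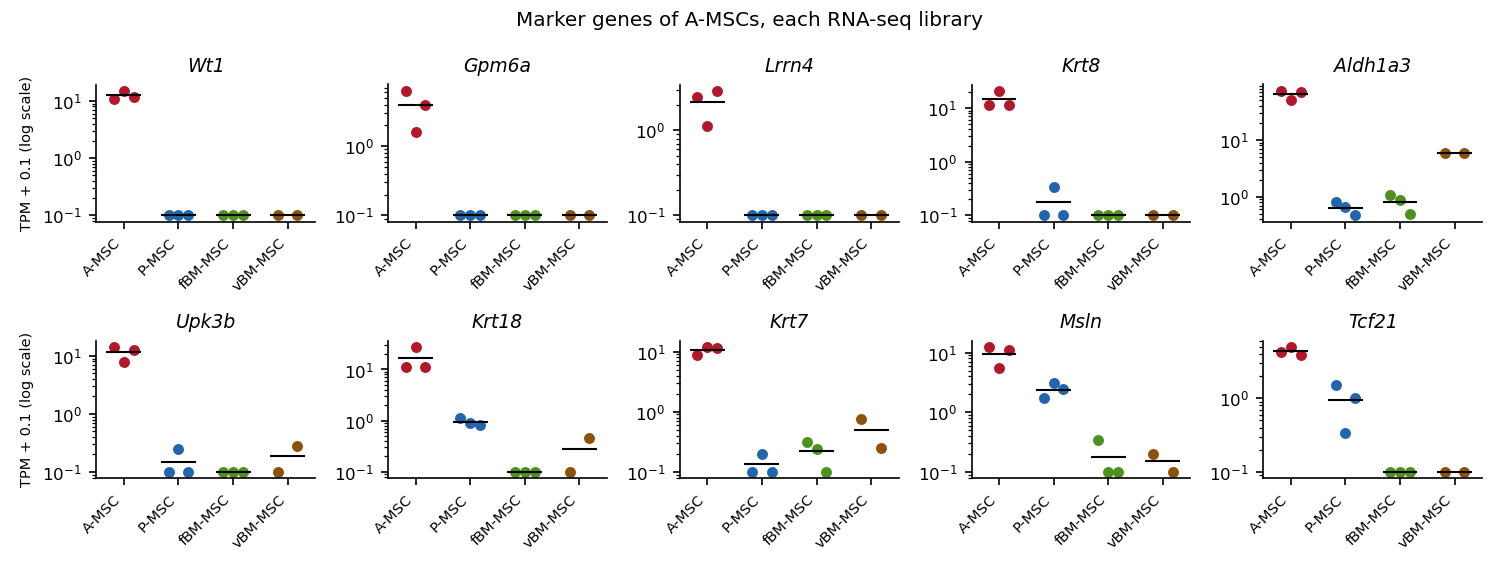
TPM + 0.1 (log scale) of 10 genes in each of the 11 RNA-seq libraries, grouped by tissue; points are libraries and black bars are means. The A-MSC points lie above every other point in each panel, with Wt1, Gpm6a and Lrrn4 at 0 TPM in all 8 other libraries.

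Chromatin at these genes was read from the ATAC-seq peak lists, 1 pooled list for each tissue, so no spread between replicates can be given. At a −log10 q of at least 7 the A-MSC list was the longest, with 71345 summits against 59536 to 64300 in the others. A gene was counted as accessible where a summit with a −log10 q of at least 7 lay within 1 kb of a curated start site. Among all 12021 tested genes with such a start, 89.0% were accessible in the A-MSC list, 88.1% in P-MSCs, 86.4% in fBM-MSCs and 88.2% in vBM-MSCs. Among 503 genes higher in every A-MSC library and past the test, the share was 84.1% in A-MSCs (exact binomial 95% interval 80.6 to 87.2, counting error only), 79.1% in P-MSCs, 73.6% in fBM-MSCs and 75.9% in vBM-MSCs. Of these genes, 22 (4.37%) were accessible in the A-MSC list alone, beside 0.94% of all genes. At a −log10 q of at least 20 it was 15 of these genes (2.98%), beside 1.65% of all genes. Among the 100 with a log2 fold change of at least 3, the shares were 55%, 37%, 29% and 32% in the same order, and 43 had a summit in no list. With no −log10 q threshold these shares were 75%, 51%, 50% and 54%, with 20 genes in no list, and at a −log10 q of at least 20 they were 25%, 19%, 11% and 13%, with 73 in no list. Among 799 genes lower in every A-MSC library, 87.6% were accessible in A-MSCs and 89.2 to 90.9% in the other lists, and 17 (2.13%) lacked a summit in A-MSCs alone, beside 0.674% of all genes. At a −log10 q of at least 20 the A-MSC list was no longer the lowest for these genes, at 67.5% against 63.8% in fBM-MSCs.

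**Figure D3:**
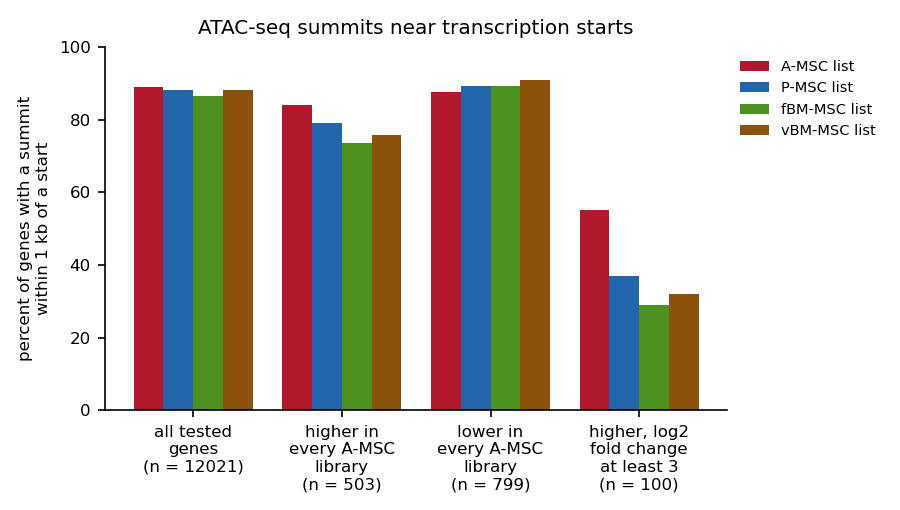
Percent of genes (vertical axis) with an ATAC-seq summit within 1 kb of a start site in each tissue's pooled peak list, for 4 sets of genes. The A-MSC bar is the highest among genes higher in every A-MSC library (84.1%) and among those with a log2 fold change of at least 3 (55.0%), and at this threshold, a −log10 q of 7, the lowest among the lower genes (87.6%).

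Wt1 lies on chromosome 2 (mm10, chr2:105126529-105173614, plus strand), and the A-MSC summit was 16 bases before its start, with a −log10 q of 77.8 and a 25.0-fold enrichment over background. No summit of any q was listed there in the other tissues. Of the 12 mesothelial genes higher in A-MSCs, Wt1, Cldn15 and Upk1b had a summit in A-MSCs alone and the remaining 9 had one in no list. With no −log10 q threshold the A-MSC list held a summit for 4 of the 12 and the P-MSC list for 3, with fBM-MSCs and vBM-MSCs at 1 each, and Wt1 alone was left with a summit only in A-MSCs. At the threshold of 7, the 22 genes accessible only in the A-MSC list were Wt1, Asic3, Tcf21, Alx1, Rbm47, Folr1, Klhl6, Gsta3, Cldn15, Cyp2d22, Crispld2, Rasgrp2, S1pr3, Cntf, Lincenc1, Upk1b, Actg2, BC028528, Slc7a7, Rasl12, Plekho1 and Tmem173.

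The 250 bases before the start of 4 of these genes are printed as examples (RefSeq, GRCm38.p6, 5′ to 3′ on the gene's strand). All 22 had a summit in the A-MSC list alone and a level higher in every A-MSC library, and 14 had a promoter entry. The 4 therefore do not give the share of the 14 that hold the letters below. Capitals mark the letters AGATAA that GATA factors bind, on either strand. They also mark the variant AGATAG wherever it occurs, as well as the variant TGATAA and the last form searched, which was TGATAG. Asic3 is at chr5:24413201-24413450 on the plus strand, Tcf21 at chr10:22820144-22820393 on the minus strand, Klhl6 at chr16:19983050-19983299 on the minus strand and Gsta3 at chr1:21240335-21240584 on the plus strand.
Asic3: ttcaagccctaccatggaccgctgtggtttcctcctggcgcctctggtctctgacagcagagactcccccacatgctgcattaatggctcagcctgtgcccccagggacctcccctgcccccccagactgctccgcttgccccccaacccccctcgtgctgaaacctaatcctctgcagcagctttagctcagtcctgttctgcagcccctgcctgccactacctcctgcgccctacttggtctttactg
Tcf21: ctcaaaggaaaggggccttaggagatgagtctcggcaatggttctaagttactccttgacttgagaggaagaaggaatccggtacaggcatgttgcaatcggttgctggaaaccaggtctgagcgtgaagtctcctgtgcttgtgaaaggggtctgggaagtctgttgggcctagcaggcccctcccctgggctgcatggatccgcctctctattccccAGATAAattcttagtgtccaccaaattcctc
Klhl6: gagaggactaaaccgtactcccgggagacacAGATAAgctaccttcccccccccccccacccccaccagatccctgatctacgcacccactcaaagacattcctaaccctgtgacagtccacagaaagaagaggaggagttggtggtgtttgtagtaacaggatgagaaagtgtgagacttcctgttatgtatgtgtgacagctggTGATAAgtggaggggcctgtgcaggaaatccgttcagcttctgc
Gsta3: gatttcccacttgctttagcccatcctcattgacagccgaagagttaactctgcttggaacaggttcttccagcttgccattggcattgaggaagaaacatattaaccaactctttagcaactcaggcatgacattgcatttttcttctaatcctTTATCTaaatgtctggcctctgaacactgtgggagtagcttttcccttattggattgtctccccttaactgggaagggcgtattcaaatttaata

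Tcf21, a bHLH factor of visceral mesenchyme, was at 4.20, 4.85 and 3.82 TPM in A-MSCs, 0.24 to 1.44 TPM in P-MSCs and 0 in bone marrow MSCs, with its summit 120 bases before the start. Klhl6, an adaptor of a ubiquitin ligase, was at 6.99, 5.80 and 5.32 TPM against at most 2.22 TPM, with its summit 24 bases before the start. Gsta3, a glutathione S-transferase, was at 19.0, 13.7 and 15.1 TPM, with fBM-MSCs nearest at 5.08 to 9.33 TPM, and its summit lay 102 bases before the start. The promoters of Tcf21, Klhl6 and Gsta3 hold the letters and that of Asic3 does not. The letters were in 26.5% of all 32851 promoters of that length (29.7% of genes in the table), in 6 of the 14 A-MSC-only genes with an entry (42.9%), in 21.4% of 387 higher genes and in 19.8% of 9515 tested genes, and binding was not tested. Of 7 genes of GATA factors and their cofactors tested, 4 were higher in A-MSCs and 1 was lower (57.1% and 14.3%, beside 16.0% and 13.9% of all tested genes), with a median of 1.19. The higher ones were Gata2, Gata3, Gata4 and Gata6. Trps1 was the lower one, at 0.08 to 0.19 TPM in A-MSCs against 0.48 to 2.72 TPM, and the cofactors Zfpm1 and Zfpm2 did not pass. The calls are against the mean of the 3 tissues. Gata4 was at 0.16 to 1.43 TPM in A-MSCs and at 1.14 to 1.91 TPM in P-MSCs, the highest mean, with overlap, and Gata2 was at 14.75 to 21.6 TPM in A-MSCs and 17.0 to 19.4 TPM in P-MSCs, which overlapped. Gata6 was at 3.94, 4.51 and 4.78 TPM in A-MSCs and 2.67 to 4.19 TPM in P-MSCs, which overlapped, against at most 1.29 TPM in bone marrow MSCs. Gata3 was at 4.13, 4.39 and 4.20 TPM in A-MSCs and at 0.94 to 2.85 TPM in the others, with no overlap.

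Contractile genes of smooth muscle were higher in A-MSCs and reached 8453 TPM. Of 18 tested, 15 were higher (83.3%, beside 16.0% of all tested genes), 1 was lower and 2 did not pass, and 1 of the 18 met the filter on low counts only through the A-MSC libraries. They had a median log2 fold change of 1.75, and 13 were higher in every A-MSC library, as were 4.32% of all tested genes. Their summed level was 19420 to 19970 TPM in A-MSCs, 11430 to 13370 TPM in vBM-MSCs, 8402 to 9633 TPM in P-MSCs and 2955 to 3506 TPM in fBM-MSCs, with no overlap between A-MSCs and the others. Acta2, smooth muscle α-actin, was at 8429, 8453 and 8060 TPM in A-MSCs. It was at 2885 to 3311 TPM in P-MSCs, 702 to 821 TPM in fBM-MSCs, and 5771 and 4257 TPM in vBM-MSCs (log2 fold change 1.97 ± 0.11, SE, adjusted p = 1e-06). Of the 3 tissues, vBM-MSCs were nearest to A-MSCs, with a log2 fold change of 0.83 between them (adjusted p = 0.0039). Tagln, the actin-binding transgelin, was ordered alike, at 3142, 3437 and 3682 TPM in A-MSCs, 1682 and 1816 TPM in vBM-MSCs, 1338 to 1693 TPM in P-MSCs and 352 to 632 TPM in fBM-MSCs. Its lowest A-MSC library was above the highest library of every other tissue.

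Des encodes desmin, the intermediate filament of muscle, and differed most within the list. It was at 163, 245 and 216 TPM in A-MSCs, 5.33 to 8.61 TPM in P-MSCs and 0.70 to 1.68 TPM in bone marrow MSCs (log2 fold change 6.81 ± 0.22, SE, adjusted p = 3.4e-08). Its lowest A-MSC library lay far above the highest library of every other tissue, and P-MSCs were nearest. Mylk, the kinase that switches on myosin light chain, was at 64.8, 55.1 and 53.4 TPM in A-MSCs and at no more than 7.51 TPM in any other library. Cnn1, calponin, was at 579, 761 and 717 TPM against at most 269 TPM. Actg2, enteric γ-actin, was at 1915, 1841 and 1866 TPM in A-MSCs, with vBM-MSCs nearest at 1104 and 901 TPM, a pairwise difference that did not pass (adjusted p = 0.13). Myl9, a myosin light chain, was not separated, since a vBM-MSC library at 1796 TPM lay above the lowest A-MSC library at 1727 TPM. Itga8, an integrin of mesenchyme and smooth muscle, was lower, at 1.5, 0.78 and 0.24 TPM, with vBM-MSCs at 22.8 and 10.4 TPM and fBM-MSCs overlapping A-MSCs.

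The promoters of Myl9 and Ldb3, a Z-disc protein, are printed for the CArG box, the site of serum response factor (RefSeq, GRCm38.p6). Only its strict form CCWWWWWWGG, where W is A or T, was searched, so boxes with other letters were not found. Among 12 higher contractile genes with an entry, they alone held that form in the 250 bases before the start. Capitals mark the box. Myl9 is at chr2:156775214-156775463 on the plus strand and Ldb3 at chr14:34588682-34588931 on the minus strand.
Myl9: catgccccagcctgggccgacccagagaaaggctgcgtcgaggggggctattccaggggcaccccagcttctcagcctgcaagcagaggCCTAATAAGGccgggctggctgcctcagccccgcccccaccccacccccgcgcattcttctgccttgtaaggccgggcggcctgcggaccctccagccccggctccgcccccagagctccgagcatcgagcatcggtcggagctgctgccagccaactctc
Ldb3: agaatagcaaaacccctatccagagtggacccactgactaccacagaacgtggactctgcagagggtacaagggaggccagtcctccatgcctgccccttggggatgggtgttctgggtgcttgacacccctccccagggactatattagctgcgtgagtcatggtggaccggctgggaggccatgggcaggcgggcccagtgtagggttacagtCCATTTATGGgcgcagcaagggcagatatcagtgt

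A CArG box of that strict form was in 1.47% of all promoters of that length (1.62% of genes in the table), in 17 of 387 higher genes (4.39%) and in 1.46% of tested genes. In A-MSCs a summit lay 260 bases before the start of Myl9 and 57 bases after that of Ldb3. Ldb3 was at 10.7, 9.46 and 11.7 TPM in A-MSCs and at no more than 6.85 TPM elsewhere. Acta2 and Tagln had summits in all 4 lists, and Mylk had one in fBM-MSCs and vBM-MSCs but not in A-MSCs, so the level of RNA and the presence of a promoter summit did not go together for every gene.

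**Figure D4:**
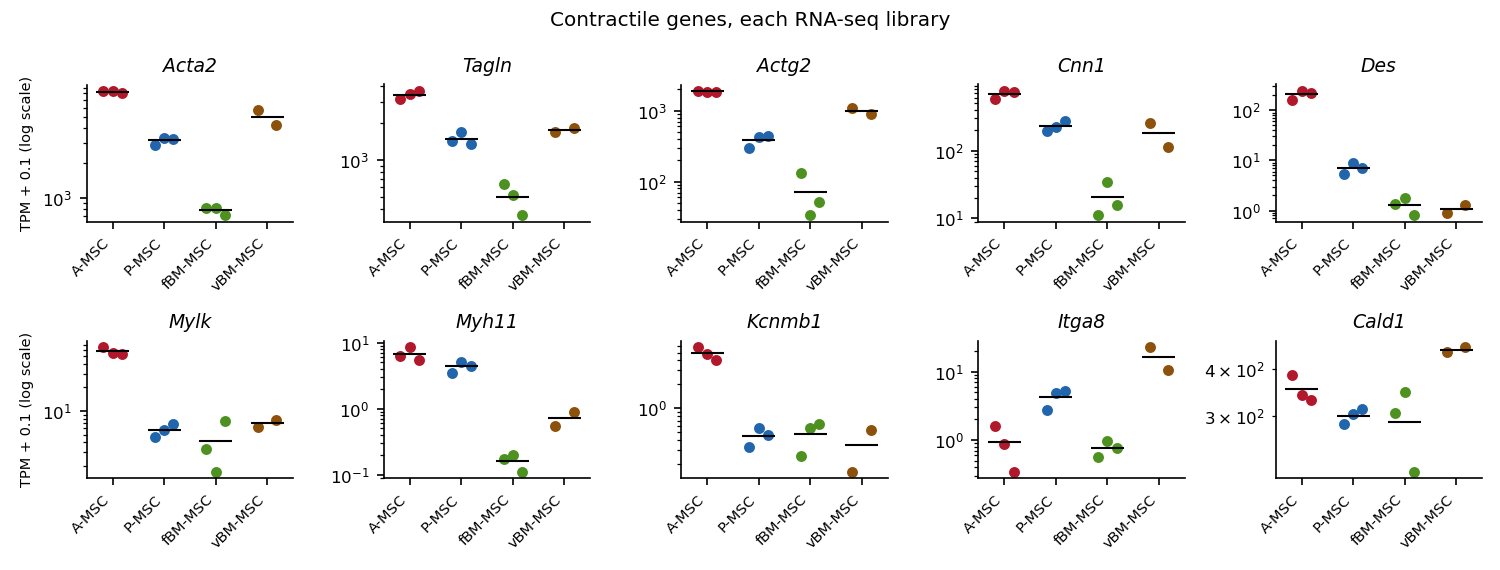
TPM + 0.1 (log scale) of 10 contractile genes in each RNA-seq library by tissue; points are libraries and black bars are means. A-MSCs are above every other library for Acta2, Tagln, Actg2, Cnn1, Des, Mylk, Myh11 and Kcnmb1, but not for Itga8 and Cald1.

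Abundant genes of the cytoskeleton differed less in fold. Actb, cytoplasmic β-actin, was at 22159 to 23486 TPM in A-MSCs, 20232 to 21390 TPM in P-MSCs, 7796 to 11493 TPM in fBM-MSCs, and 17301 and 14851 TPM in vBM-MSCs (log2 fold change 0.74, adjusted p = 0.001). Tmsb4x, thymosin β4, which binds monomeric actin, was at 8892 to 9240 TPM in A-MSCs and at no more than 6862 TPM elsewhere. Both were higher in every A-MSC library, although for Actb the difference from P-MSCs did not pass (adjusted p = 0.12).

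Several further genes were nearly private to A-MSCs. Asic3, an acid-sensing ion channel of sensory neurons, was at 54.7, 57.4 and 73.4 TPM in A-MSCs and at no more than 1.97 TPM in any other library, and its log2 fold change was 8.04 ± 0.70 (SE, edgeR adjusted p = 1.6e-05). It overlaps Cdk5 on the opposite strand. Gdf6, a growth factor of the BMP family, was at 15.2, 20.7 and 24.2 TPM against at most 1.18 TPM, the highest other library being fBM-MSC (log2 fold change 7.50, adjusted p = 2.7e-06). Saa3, an acute-phase apolipoprotein, was at 12.2, 13.5 and 38.5 TPM, highest in replicate 3, against at most 0.67 TPM. Folr1, a folate receptor, was at 23.9, 19.0 and 28.8 TPM against at most 1.61 TPM. None of these overlapped another tissue.

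For other genes higher in every A-MSC library, 1 tissue came near and its own difference from A-MSCs did not pass, which does not show equal levels. Cck, the peptide hormone cholecystokinin, was at 2197, 2694 and 2417 TPM in A-MSCs and 1759, 1653 and 1748 TPM in P-MSCs, against at most 15.6 TPM in bone marrow MSCs. Its log2 fold change from P-MSCs was 0.72 and did not pass (adjusted p = 0.37). Its promoter had a summit in the A-MSC and P-MSC lists and in neither bone marrow list. Srpx, a sushi-repeat protein, was at 17.96, 21.1 and 19.1 TPM in A-MSCs and at 12.8 and 9.36 TPM in vBM-MSCs, with 0 in P-MSCs (adjusted p = 0.094 against vBM-MSCs). Ifi27l2a, an interferon-inducible gene, was at 13.01, 22.8 and 29.2 TPM in A-MSCs, with the nearest vBM-MSC library at 4.07 TPM.

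The genes lower in every A-MSC library and named by fold had varied functions. Mmp13, the collagenase of hypertrophic cartilage and bone, was at 1.08, 1.08 and 1.05 TPM in A-MSCs, 11.4 to 13.6 TPM in P-MSCs, 39.1 to 139 TPM in fBM-MSCs, and 46.5 and 336 TPM in vBM-MSCs (log2 fold change −5.56 ± 0.70, SE, adjusted p = 0.00021). The bone marrow libraries varied several-fold, and all lay above A-MSCs. Masp1, a serine protease of the lectin pathway of complement, was at 0.51, 0.20 and 0.34 TPM in A-MSCs and 6.23 to 18.1 TPM elsewhere, with a log2 fold change near −5 against each tissue (−5.31, −5.19 and −4.50 against P-MSCs, fBM-MSCs and vBM-MSCs). Itgbl1, an integrin β-like secreted protein, was at 2.55, 1.71 and 0.75 TPM against 35.2 to 88.9 TPM. Masp1 and Itgbl1 were thus low in A-MSCs relative to lung and bone marrow alike.

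Mgp, matrix Gla protein, which holds back calcification, had the largest difference in TPM among the genes lower in every A-MSC library. It was at 440, 309 and 398 TPM in A-MSCs, 836 to 1274 TPM in P-MSCs, 3860 to 6477 TPM in fBM-MSCs, and 15214 and 17832 TPM in vBM-MSCs (log2 fold change −3.38 ± 0.23, SE, adjusted p = 4e-06). Its A-MSC and P-MSC promoters had no summit, and those of fBM-MSCs and vBM-MSCs had one. Ecm1, a secreted matrix glycoprotein, was at 121, 131 and 113 TPM against 456 to 1502 TPM (log2 fold change −2.62 ± 0.11, SE, adjusted p = 1.1e-07). Penk, proenkephalin, was at 1.69, 0.75 and 0.60 TPM, with P-MSCs at 3.49 to 7.16 TPM and bone marrow MSCs at 50.0 to 90.0 TPM. Mmp16, a membrane-bound metalloprotease, was at 0.45 to 0.69 TPM against 5.42 to 24.6 TPM, and its promoter had a summit in every list but that of A-MSCs. Ctsd, the lysosomal protease cathepsin D, was at 547 to 619 TPM against 842 to 4586 TPM, with its difference from P-MSCs not passing (adjusted p = 0.17). Igfbp7, a secreted IGF-binding protein, was at 508 to 630 TPM against 844 to 1942 TPM, and Bgn, the proteoglycan biglycan, at 902 to 991 TPM against 1061 to 2022 TPM. The further genes named by their fold were Eva1c, Gm2694, Cgnl1, Kcnn4, Evi2a and Klra18, all at 0 to 3.13 TPM in A-MSCs. Klra18 belongs to a multigene family whose members share reads, so its value is uncertain.

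Cdkn2a and cyclin D1 were low as well. Cdkn2a, which encodes cell cycle inhibitors that build up in aging cultures, was at 3.92, 3.14 and 5.22 TPM in A-MSCs, 12.8 to 17.9 TPM in P-MSCs, 97.2 to 111 TPM in fBM-MSCs, and 41 and 75.4 TPM in vBM-MSCs. Ccnd1, cyclin D1, was at 37.1, 37.5 and 31.6 TPM against 124 to 644 TPM (log2 fold change −2.83, adjusted p = 7.2e-08), and was chosen after its values were seen. Of 40 replication and mitosis genes, 28 were higher in A-MSCs than the mean of the other tissues and none was lower by edgeR (70% and 0%, beside 16.0% and 13.9% of all tested genes), with a median of 0.90. At an unadjusted p under 0.05 edgeR had 1 of them lower, while DESeq2 called 1 and limma on log2(TPM + 1) called 2. None of the 40 was higher in every A-MSC library. Their summed level was 1624 to 1669 TPM in A-MSCs, between 2985 to 3186 TPM in P-MSCs and 580 to 660 TPM in bone marrow MSCs. Birc5, survivin, which acts in chromosome segregation, was at 129 to 134 TPM in A-MSCs, 281 to 309 TPM in P-MSCs and 15.01 to 26.6 TPM in bone marrow MSCs.

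Of 25 osteoblast genes tested, 10 were lower in A-MSCs, 1 was higher and 14 did not pass (40% lower and 4% higher, beside 13.9% and 16.0% of all tested genes), with a median log2 fold change of −2.42, and of 12 chondrocyte genes, 7 were lower and 3 were higher (58.3% and 25%), with a median of −1.96. Of the chondrocyte genes, 1 met the filter on low counts only through the A-MSC libraries. The call of Matn3, a matrilin and 1 of the 3 higher, was lost under 11 alternatives (adjusted p of 0.0534 to 0.375). Sp7, the osteoblast transcription factor osterix, was listed at 0 in all A-MSC libraries, at 0.04 to 0.16 TPM in P-MSCs, at 10.1 to 64.3 TPM in fBM-MSCs, and at 2.62 and 9.71 TPM in vBM-MSCs (adjusted p = 0.0019). Spp1, osteopontin, was at 352 to 384 TPM in A-MSCs and 160 to 284 TPM in P-MSCs, against 1562 to 84015 TPM in bone marrow MSCs. A-MSCs thus lay above P-MSCs for Spp1, and the contrast was set by bone marrow. Comp, a cartilage matrix protein, was at 0, 0 and 0.12 TPM in A-MSCs and 7.65 to 109 TPM in bone marrow MSCs, with P-MSCs at 0 to 0.87 TPM. Without P-MSC replicate 1, the only P-MSC library above 0 TPM for Comp, its call was lost (adjusted p = 1), while bone marrow MSCs stayed far above A-MSCs. The chondrocyte count fell from 7 to 4 without A-MSC replicate 1, 2 or 3 and without P-MSC replicate 1, and on log2(TPM + 1) limma called 16 osteoblast genes lower.

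Of 24 transcription factors of limb and axial skeleton tested, 9 were lower in A-MSCs, 14 did not pass and 1 was higher (37.5% lower and 4.17% higher, beside 13.9% and 16.0% of all tested genes). The 1 higher was Alx1, which met the filter on low counts only through the A-MSC libraries and so had to differ. The list had a median of −2.59, or −2.40 with members without counts in a tissue set at the floor. Tbx15, a T-box factor of skeleton and dermis, was at 0.25, 0.69 and 0.16 TPM against 1.85 to 16.6 TPM, with P-MSCs lowest among the others (log2 fold change −4.24, adjusted p = 5.3e-05). Pax1, a factor of the vertebral sclerotome, was at 0, 0.12 and 0 TPM in A-MSCs and 17.9 and 13.9 TPM in vBM-MSCs. Shox2, a limb factor, was at 0 to 0.10 TPM in A-MSCs and 17.1 to 27.1 TPM in fBM-MSCs, while vBM-MSCs were at 0 and 1.1 TPM, and without vBM-MSC replicate 2 its call was lost (adjusted p = 0.995). Alx1, a homeodomain factor, was at 4.77, 3.52 and 4.08 TPM in A-MSCs and at most 0.95 TPM elsewhere.

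Of 26 Hox genes tested, 9 were higher in A-MSCs (34.6%, beside 16.0% of all tested genes) and none was lower by edgeR (0 at an unadjusted p under 0.05), with a median of 1.07, or 0.74 with members without counts at the floor. On log2(TPM + 1) limma called 2 of them lower, and without vBM-MSC replicate 2 edgeR called 15 higher. The contrast rested on P-MSCs for several of them. Hoxc8, which patterns the thoracic trunk, was at 18.5, 13.1 and 9.65 TPM in A-MSCs and 19.2 and 17.8 TPM in vBM-MSCs, with no difference passing between the pair (adjusted p = 0.48). It was at 2.10 to 3.41 TPM in fBM-MSCs and at 0 in P-MSCs. Hoxc13, Hoxd8 and Hoxd9 were also at 0 in every P-MSC library. Of 18 transcription factors of visceral mesenchyme, 7 were higher and 3 were lower (38.9% and 16.7%, beside 16.0% and 13.9% of all tested genes), with a median of 0.07. Of the 18, 4 met the filter on low counts only through the A-MSC libraries, and without them 3 of 14 were higher and 3 were lower. Wt1, Tcf21, Gata4, Gata6, Hand2, Nr2f1 and Nr2f2 were higher than the mean of the 3 tissues, and Foxf1, Foxd1 and Barx1 were lower. Nr2f2, an orphan nuclear receptor, was at 11.7 to 14.9 TPM in A-MSCs and 15.7 to 22.5 TPM in P-MSCs, so P-MSCs had the highest mean, as for Gata4. The calls of Hand2 (without A-MSC replicate 2 or 3, adjusted p of 0.0588 and 0.0666), Gata4 (without A-MSC replicate 2, and by limma, adjusted p of 0.0865 to 0.314) and Barx1 (without any 1 A-MSC replicate or vBM-MSC replicate 2, adjusted p of 0.0512 to 1) were lost under these alternatives.

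**Figure D5:**
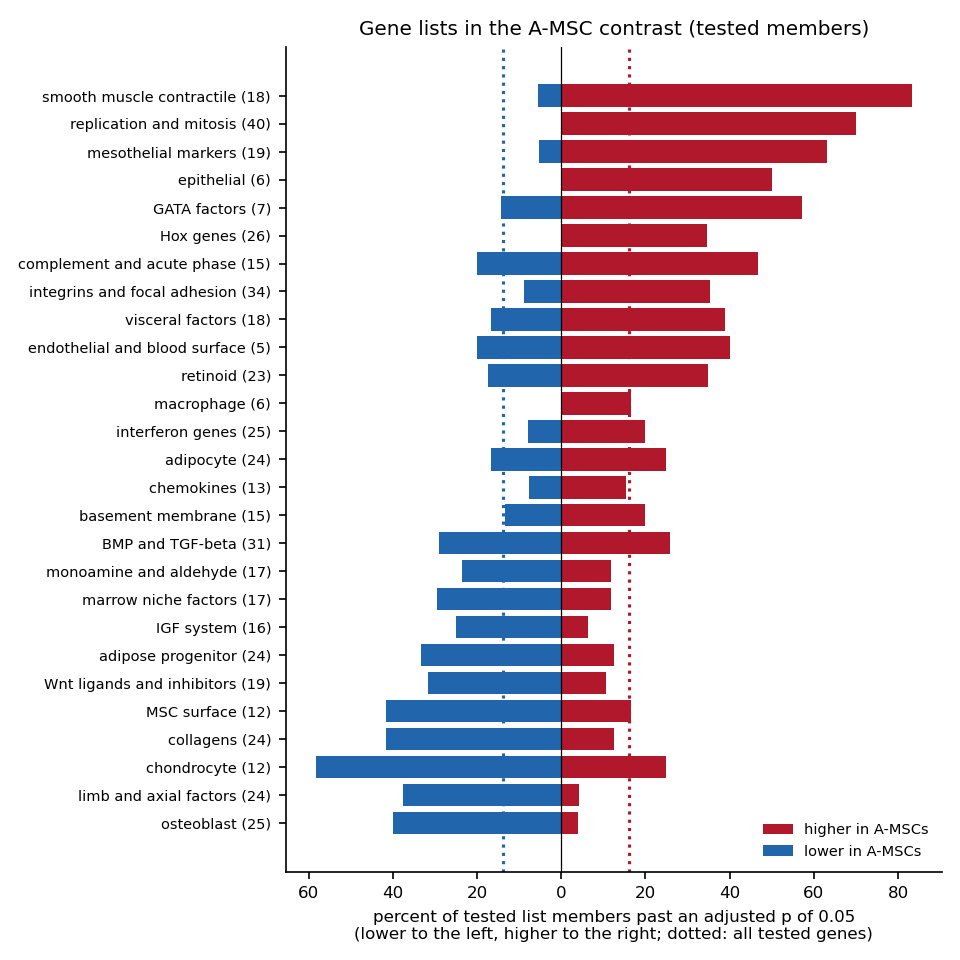
Percent of the tested members of each gene list with 5 or more such members past an adjusted p of 0.05 in the A-MSC contrast, higher to the right and lower to the left; dotted lines mark the shares over all tested genes, 16.0% and 13.9%. Smooth muscle contractile, replication and mesothelial genes reach furthest to the right, the last resting on 8 of 19 members that met the filter on low counts only through the A-MSC libraries (4 of 11 higher without them).

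Of 24 adipocyte genes tested, 6 were higher and 4 were lower (25% and 16.7%), near the 16.0% and 13.9% of all tested genes, with a median of 0.05. Fabp4, a fatty acid carrier of adipocytes, was at 118, 42.4 and 140 TPM in A-MSCs, 2.68 to 3.84 TPM in P-MSCs and 22.0 to 64.0 TPM in bone marrow MSCs, so A-MSC replicate 2 overlapped bone marrow. Cd36, the fatty acid translocase, was at 3.41, 0.62 and 6.17 TPM, with a vBM-MSC library at 0.91 TPM. Fabp4, Cd36 and Adipoq were all lowest in A-MSC replicate 2. Pparg, the factor that drives adipocyte formation, did not pass (log2 fold change −0.03, adjusted p = 0.96). Of 24 adipose progenitor genes, 3 were higher and 8 were lower (12.5% and 33.3%), with a median of −0.40. F3, tissue factor, was at 889, 1005 and 931 TPM in A-MSCs and 1008 and 435 TPM in vBM-MSCs, against 478 to 549 TPM in P-MSCs and 21.4 to 37.1 TPM in fBM-MSCs. Sema3c, a secreted semaphorin, was at 3.37, 4.25 and 2.41 TPM against 9.74 to 60.8 TPM and was lower in every A-MSC library. Cd34, a sialomucin of progenitors, was at 0.91 to 1.18 TPM in A-MSCs and 1.69 to 79.2 TPM elsewhere. Of 17 niche factor genes, 2 were higher and 5 were lower (11.8% and 29.4%), with a median of −0.37.

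Of 24 collagen genes, 3 were higher and 10 were lower (12.5% and 41.7%, beside 16.0% and 13.9% of all tested genes), with a median of −0.39, and of 15 basement membrane genes, 3 were higher and 2 were lower (20% and 13.3%, near those shares), with a median of 0.12. Nid2, nidogen 2, which links laminin to collagen IV, was at 17.7, 17.0 and 24.4 TPM in A-MSCs and at no more than 10.6 TPM elsewhere (log2 fold change 2.22 ± 0.16, SE, adjusted p = 4.6e-06). Npnt, nephronectin, was at 44.1, 32.6 and 33.3 TPM, with P-MSCs nearest at 18.9 to 25.9 TPM. Of 34 integrin and focal adhesion genes, 12 were higher and 3 were lower (35.3% and 8.82%), with a median of 0.24. Itga5, the fibronectin receptor subunit, was at 399, 440 and 430 TPM in A-MSCs against at most 296 TPM, while its partner Itgb1 was at 466 to 522 TPM against 672 to 1051 TPM. The subunits thus went in opposite directions, each without overlap.

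Of 31 BMP and TGF-β genes, 8 were higher and 9 were lower (25.8% and 29.0%, beside 16.0% and 13.9% of all tested genes), with a median of −0.14. Inhbb, the β subunit of activin B, was at 14.95, 13.01 and 13.5 TPM in A-MSCs against at most 6.30 TPM, and P-MSCs were lowest at 0.01 to 0.12 TPM (log2 fold change 4.29 ± 0.40, SE, adjusted p = 3e-05). Bmp2, a bone-inducing ligand, was at 0.32 to 0.38 TPM in A-MSCs and 1.02 to 24.2 TPM in bone marrow MSCs, with P-MSCs at 0.17 to 1.02 TPM on either side of A-MSCs. Grem1, a secreted BMP antagonist, was at 28.5, 30.5 and 22.2 TPM in A-MSCs and 32.2 to 173 TPM elsewhere, so the antagonist was lower without overlap. Of 19 Wnt genes, 2 were higher and 6 were lower (10.5% and 31.6%), with a median of −0.79. Rspo2, an R-spondin that amplifies Wnt signalling, was at 0, 0.06 and 0 TPM in A-MSCs, 0.80 to 1.22 TPM in P-MSCs and 8.26 to 15.2 TPM in bone marrow MSCs (log2 fold change −7.76 ± 0.53, SE, adjusted p = 4.1e-06). Dkk3, a Dickkopf family protein, was at 5.03 to 6.19 TPM against 11.9 to 187 TPM. Sfrp1, a secreted Wnt inhibitor, was higher than the mean of the other tissues, at 11.5, 20.1 and 20.2 TPM in A-MSCs. Both vBM-MSC libraries lay above these, at 21.0 and 26.8 TPM. Of 16 IGF axis genes, 1 was higher and 4 were lower (6.25% and 25%), with a median of 0.06.

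Of 15 complement and acute-phase genes, 7 were higher and 3 were lower (46.7% and 20%, beside 16.0% and 13.9% of all tested genes), with a median of 0.90. Without 2 that met the filter on low counts only through the A-MSC libraries, 5 of 13 were higher. The call of C4b, a complement component, was lost under 13 alternatives, among them limma and the replicate block. C3, the central complement component, was at 3.26, 2.58 and 4.91 TPM in A-MSCs and at no more than 0.19 TPM elsewhere, and it met that filter only through the A-MSC libraries. Hp, haptoglobin, was at 7.76, 1.64 and 10 TPM, and a vBM-MSC library reached 10.1 TPM. Of 25 interferon genes, 5 were higher and 2 were lower (20% and 8%, near the shares of all tested genes), with a median of 0.52, and without 1 member of that kind 4 of 24 were higher. The 13 chemokine genes had 2 higher and 1 lower (15.4% and 7.69%), with a median of 0.40. Of 17 monoamine-degrading genes, 2 were higher and 4 were lower (11.8% and 23.5%), with a median of −0.11. Maob, a monoamine oxidase, was at 14.3, 12.4 and 15.4 TPM in A-MSCs and at no more than 4.55 TPM elsewhere (log2 fold change 2.27 ± 0.20, SE, adjusted p = 1.6e-05), a separation from all 3 tissues. Its paralogue Maoa was at 32.9 to 35.2 TPM in A-MSCs, within the range of P-MSCs and below vBM-MSCs at 121 and 80.5 TPM, and its call was lost under 6 alternatives, among them those without A-MSC replicate 1, 2 or 3 (adjusted p of 0.0564 to 0.116).

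The remaining lists held few tested members. Of 6 macrophage genes, 1 was higher (16.7%, near the 16.0% of all tested genes) and none was lower by edgeR (1 at an unadjusted p under 0.05, and 3 called by limma on log2(TPM + 1)), with a median of −0.46. The 1 higher was Csf1r, the CSF1 receptor, which was at most 2.76 TPM outside A-MSCs. Of 3 Schwann and neural genes 2 were higher and 1 was lower. Tubb3, a neuronal β-tubulin that stroma also carries, was at 124, 100 and 113 TPM in A-MSCs and at no more than 94.4 TPM elsewhere.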

How the data were processed

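RNA-seq was by Smart-seq2, which keeps no strand, and ATAC-seq by transposase insertion, in cultured MSCs of 4 tissues. The authors aligned RNA reads to mm10 with RSEM and deposited the expected count of each of 24411 genes, not normalized, with its TPM, scaled for length and library size. The FPKM deposited beside them, and the gene lengths, were not used. ATAC-seq reads were trimmed by the authors with Trim Galore, aligned with Bowtie, freed of duplicates with Picard and passed, pooled, to MACS2, 1 list a tissue. The deposited lists give each summit's fold enrichment over background, as a ratio, its −log10 q and its offset in bases. Tool versions are not given in the sources used here.

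After rounding, the expected counts went into edgeR 4.0.16 (R 4.3.3) for its two-sided quasi-likelihood test with TMM factors and Benjamini-Hochberg adjustment, called under 0.05. Genes entered with 2 or more libraries at 1 CPM or above. The model held 4 tissue means over 11 libraries, and the contrast was A-MSC minus the mean of the other tissue means. Separation in every library used TPM. Alternatives were DESeq2 1.42.0, limma 3.58.1 on log2(TPM + 1) and log2(TPM + 0.1), other filters, a replicate block and leaving out each library. All libraries carry the same sequencing run in their labels, so no run batch was fitted. Nothing in the labels says that the tests' libraries are independent of shared mice, so p-values measure the spread between these libraries. The edgeR fit alone was also run on simulated counts with the same spread for every gene, and that outcome is not reported here.

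Genes named were the 5 label markers, the 15 of each direction with the largest fold among separated genes (mean of at least 5 TPM), the 8 of each direction with the largest TPM difference, and up to 6 of each of 28 gene lists with any defining marker. The members and lists were chosen with earlier results of these data known, and the motifs, Ccnd1 and the genes with a summit in A-MSCs alone after their values were seen. Some multigene family members share reads. Promoters came from RefSeq (GRCm38.p6, whose chromosome lengths are those of mm10), with start sites on chromosomes 1 to 19, and Python 3.11.15, pandas 2.3.3, numpy 2.4.6, scipy 1.17.1 and matplotlib 3.10.9 were used. The gene just inside the rule on the higher side is not reported here.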

Additional observations from a re-analysis of the deposited data

How the results depend on the processing

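Without 1 library at a time, the number of genes higher in A-MSCs than the mean of the other tissues ranged from 1341 to 2189 and the number lower from 1145 (without A-MSC replicate 3) to 1952. Genes higher than each of the 3 tissues ranged from 193 (without A-MSC replicate 3) to 360 and genes lower than each from 195 (without vBM-MSC replicate 2) to 403. Under the other settings these counts ranged from 1338 to 2165, 1656 to 2558, 221 to 369 and 301 to 437. Genes higher in every A-MSC library numbered 842 on TMM-scaled CPM against 541 on TPM, and the cause was not tested. The share of higher genes with a promoter summit in A-MSCs was 92.4% with no −log10 q threshold, 65.6% at a −log10 q of at least 20 and 80.3% within 500 bases, against 84.1%. Of the combinations of a named gene and a setting, 181 lost their call, 2911 stayed on their side of the threshold and 0 reversed direction, and the cause was not tested. For the gene lists, 102 combinations of a list result and a setting were classed as moved from the main result, 906 as the same and 0 as reversed. A replicate block gave 1976 genes higher and 1689 lower. Libraries with the same number correlated at −0.0279 to 0.125 in their deviations from the group means, and those with different numbers at −0.125 to 0.109, so the numbers were not taken to pair the samples. Counts of few reads limit Gpm6a, Lrrn4 and Hand2, and the peak lists carry no spread between replicates.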

Other observations

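Some genes of steroid-making cells, chosen after their values were seen, were also higher in every A-MSC library. Star, which carries cholesterol into mitochondria, was at 5.91, 6.18 and 8.11 TPM in A-MSCs and at no more than 0.50 TPM elsewhere (log2 fold change 4.56 ± 0.34, SE, edgeR adjusted p = 6.5e-06). Mrap, an accessory protein of the ACTH receptor, was at 15.1, 16.4 and 14.1 TPM against at most 1.99 TPM. Cyp11b1, an adrenal steroid hydroxylase, was at 1.48, 1.47 and 1.06 TPM against at most 0.02 TPM. The genes of the steps between these were not all present. Cyp11a1, Cyp17a1, the ACTH receptor gene Mc2r and Nr0b1 were listed at 0 in every library, and Hsd3b1 was highest in P-MSCs, at 22.3 to 22.5 TPM, against 2.66 to 8.21 TPM in A-MSCs.

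Endothelial genes were mixed. Ecscr was at 56.3, 34.4 and 40.8 TPM in A-MSCs against at most 12.9 TPM, and Flt1, a VEGF receptor, at 9.72, 13.6 and 12.8 TPM against at most 3.32 TPM. Kdr, the other VEGF receptor tested here, was highest in P-MSCs at 2.33 to 2.84 TPM. Cdh5, the junction protein of endothelium, was at 0.81, 1.05 and 0.13 TPM in A-MSCs against at most 0.08 TPM, without overlap. It met the filter on low counts only through the A-MSC libraries. Pecam1 was at 3.84 TPM in A-MSC replicate 1 and at 0.34 and 0.28 TPM in replicates 2 and 3, while Ecscr and Flt1 were high in all 3.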
